A study of Mus musculus with 8 samples.

Results

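The 10 AP-1 transcription factor subunits described here are the Fos family (Fos, Fosb, Fosl1, Fosl2), the Jun family (Jun, Junb, Jund) and the related basic leucine zipper factors Atf3, Batf and Maff. They were chosen by gene symbol from the 54232 gene identifiers of the series, and all 10 were among the 19251 genes that had enough counts to be tested. RNA came from epidermis scraped off the shaved backs of female F1 mice (C57Bl crossed with 129), which were wild type or knockout for REDD1, an inhibitor of mTORC1 that stress induces and Ddit4 encodes. Vehicle animals had 200 ul of acetone, TPA animals 4 ug of the phorbol ester TPA in acetone, and FA+TPA animals 2 ug of the glucocorticoid fluocinolone acetonide (FA) 1 h ahead of the same TPA dose. Skin was taken 24 h after TPA. There were 2 vehicle libraries per genotype and 1 library per genotype for each of the other treatments, 8 libraries in all. The labels state neither how the knockout was made nor whether a library pooled animals, nor that the vehicle replicates were separate animals. The p-values thus reflect spread between libraries, not between known animals, and that spread may be technical. In the fits of treatments and of overall genotype, wild type and knockout stood in as replicates of each treatment. There the spread also holds any difference in treatment response between genotypes.

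AP-1 is a pair of basic leucine zipper proteins joined through their zippers: a Jun protein with another Jun, or with a Fos, Atf or Maf partner. Phorbol esters mimic diacylglycerol and activate protein kinase C, which signals through the MAP kinases to AP-1, and the TPA response element, the DNA site that AP-1 binds, is named after TPA. Glucocorticoid receptor can hold down AP-1 activity at target genes by protein contact, without a change in the amount of AP-1. Fos, Fosb, Atf3 and Egr genes are among the classical immediate early genes, whose transcripts rise and decay within hours of a stimulus.

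Library totals ranged from 16874233 to 22560098 counts, and the upper limit behind a count of 0 (3 counts) was 0.133 to 0.178 CPM, which covers counting error only. CPM is the read count scaled by library size. Ddit4 lay between 64.1 and 128 normalised CPM in the wild-type libraries and between 4.44 and 18.8 CPM in the knockout libraries, with no overlap. The keratinocyte markers Krt5, Krt14, Krt1, Krt10, Trp63 and Dsg3 summed to between 16300 and 30200 CPM in every library. The 7 neutrophil markers summed to between 1.55 and 3.31 CPM in vehicle, 47.6 and 71.8 CPM under TPA and 15.7 and 19.4 CPM under FA+TPA, with the neutrophil elastase gene Elane at 0 in all libraries. The 8 macrophage markers summed to between 111 and 127 CPM in vehicle, 123 and 306 CPM under TPA and 136 and 165 CPM under FA+TPA, and none was at 0 in all libraries. The 6 Langerhans cell markers, none of them at 0 in all libraries, summed to between 718 and 800 CPM in vehicle, 534 and 535 CPM under TPA and 315 and 426 CPM under FA+TPA. The 6 fibroblast markers, none at 0 in all libraries, summed to between 620 and 1170 CPM in vehicle. Their sums were 512 and 386 CPM in wild-type and knockout TPA and 263 and 349 CPM in wild-type and knockout FA+TPA. The share of these cells in the AP-1 values below was not tested, and in bulk tissue fewer cells of a type cannot be told apart from less RNA per cell.

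Compared per kilobase of exon (RPKM), Junb was the most abundant subunit transcript in vehicle skin at 45.7 ± 10.1 RPKM (SD, n = 4 libraries of both genotypes), followed by Fosl2 at 35.0 ± 3.04, Jund at 26.0 ± 3.71, Jun at 23.4 ± 2.54 and Fos at 15.7 ± 11.6 RPKM. Maff stood at 10.1 ± 2.02 RPKM, Atf3 at 4.10 ± 1.80, Fosb at 2.23 ± 1.31, Fosl1 at 1.69 ± 0.21 and Batf at 0.227 ± 0.119 RPKM (SD, n = 4 each). The ranges of neighbours in that order overlapped except between Fosl2 and Jund, between Maff and Atf3 and between Fosl1 and Batf. Fosl1 was 9th of the 10 by mean RPKM in vehicle and 7th under TPA and under FA+TPA. Under FA+TPA its 6.87 and 7.42 RPKM lay above both Fosb values (3.12 and 5.18 RPKM). Fosl2 made up between 51.7% and 85.9% of the summed Fos family RPKM in each library and Junb between 44.6% and 59.0% of the Jun family. Fosl1 made up between 2.0% and 4.78% of the Fos family in vehicle and 10.6% and 10.1% in wild type and knockout under FA+TPA.

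**Figure D1:**
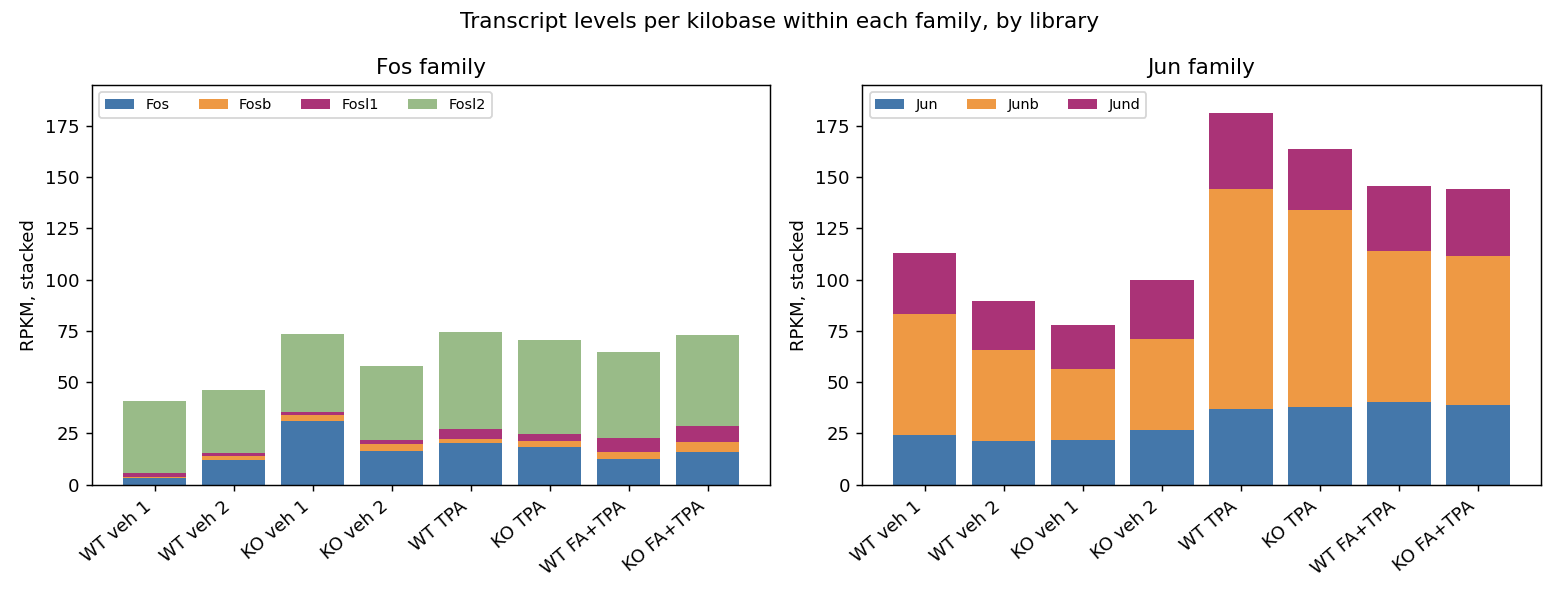
RPKM (normalised CPM per kilobase of exon) of the 4 Fos family transcripts (left) and the 3 Jun family transcripts (right), stacked for each of the 8 libraries. Fosl2 and Junb are the largest blocks in every library, and the summed Jun family rises from between 77.9 and 113 RPKM in vehicle to 181 and 164 RPKM under TPA.

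The promoters of 9 of the 10 subunits matched the RefSeq promoter table (build GRCm38.p6, 250 bases before to 50 after each start). Fosl1 had no window there, so its promoter was not searched. A Jun window held TGACATCA, close to the cyclic AMP response element that Atf and Creb proteins bind, and a Maff window held that element itself, TGACGTCA. They are shown because Jun and Maff are members whose transcripts changed and whose windows hold a site for the family itself. Jund also changed, and a Jund window (chromosome 8, 70697489 to 70697788, plus strand) held TGAAATCA at -61, but it is not shown. That window ends before the Jund gene start given below. Each line gives the 120 bases before the start, 5′ to 3′ along the gene, with the match in capitals.
Jun, chr4:95052223-95052342, minus strand: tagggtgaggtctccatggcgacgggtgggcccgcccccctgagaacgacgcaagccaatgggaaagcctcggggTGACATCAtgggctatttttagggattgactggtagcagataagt
Maff, chr15:79347400-79347519, plus strand: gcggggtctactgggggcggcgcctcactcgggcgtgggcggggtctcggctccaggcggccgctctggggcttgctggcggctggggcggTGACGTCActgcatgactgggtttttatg
Counted back from the start, the Jun match shown begins at -45 and the Maff match at -29. The motif TGANNTCA, which reads the same on both strands and includes TGACGTCA, was found for 3 of 9 subunits (Jun, Jund, Maff). It was in 14.1% of the 32851 promoter windows of the table. Subunits were counted by gene, over all windows of a gene, and Maff has several, so their counts and the percentages are not alike. TGACGTCA itself was in 1 of 9 (Maff) and in 1.79% of windows. The TPA response element TGANTCA was in 0 of 9 and in 7.81% of windows, and the CArG box of serum response factor in 0 of 9 and 1.63%. The palindromic glucocorticoid response element was in 0 of 9 and in 0.00913% of windows. Sequence outside these windows was not searched, so a count of 0 does not show that a gene lacks the site.

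The first comparison asked what TPA did to the subunits, with both genotypes in 1 fit and each effect given as a log2 change ± its standard error (SE) from edgeR. TPA raised all 3 Jun genes and the Fos-related genes Fosl1 and Fosl2, while Fos, Fosb, Atf3, Batf and Maff did not pass the test. Thus 5 of 10 subunits rose and 0 fell, where 23.2% of all 19251 tested genes rose and 46.0% changed in either direction, and the median change was 0.47 over the subunits and -0.03 over all tested genes. When only library size was used for scaling, the median of all genes moved to -0.253, the split of all calls went from 4474 up and 4379 down to 2847 up and 6429 down, and no subunit that had passed changed direction.

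Fosl1 (ENSMUSG00000024912; chromosome 19, 5447547 to 5455946, plus strand, mm10), which encodes Fra-1, a Fos protein without a transactivation domain of its own that is raised in wounded and transformed epithelium, was at 3.95 and 3.20 CPM in the wild-type vehicle libraries and 3.0 and 3.63 CPM in the knockout vehicle libraries. The wild-type TPA library had 9.79 CPM and the knockout one 6.86 CPM. Both TPA libraries lay above all 4 vehicle libraries, a change of 1.26 ± 0.18 (edgeR adjusted p = 0.000208). Junb (ENSMUSG00000052837; chromosome 8, 84974484 to 84978718, minus strand), a Jun protein that is a weaker activator than Jun on many promoters, was at 136 and 102 CPM in wild-type vehicle, 79.9 and 103 CPM in knockout vehicle, 246 CPM in wild-type TPA and 221 CPM in knockout TPA. It rose by 1.16 ± 0.14 (edgeR adjusted p = 5.88e-05), again with no overlap between the groups. Jun (ENSMUSG00000052684; chromosome 4, 95049034 to 95052222, minus strand, a single exon), the founding Jun protein, was at 77.1 and 67.6 CPM in wild-type vehicle and 68.7 and 85.0 CPM in knockout vehicle. Under TPA it was at 118 and 121 CPM, above every vehicle library, and the change was 0.68 ± 0.10 (edgeR adjusted p = 0.000277).

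The smaller rises were those of Fosl2 and Jund. Fosl2 (ENSMUSG00000029135; chromosome 5, 32135801 to 32157842, plus strand), which encodes Fra-2, was at 338 and 299 CPM in wild-type vehicle, 368 and 350 CPM in knockout vehicle, 462 CPM in wild-type TPA and 445 CPM in knockout TPA. The TPA libraries did not overlap vehicle, and the change was 0.42 ± 0.09 (edgeR adjusted p = 0.00308). Jund (ENSMUSG00000071076; chromosome 8, 70698949 to 70700616, plus strand, a single exon), the constitutively expressed Jun protein, was at 49.2 and 40.4 CPM in wild-type vehicle, 36.1 and 47.7 CPM in knockout vehicle, 62.1 CPM in wild-type TPA and 49.5 CPM in knockout TPA. It rose by 0.36 ± 0.13 (edgeR adjusted p = 0.041), and the knockout TPA library (49.5 CPM) was barely above wild-type vehicle 1 (49.2 CPM). Without the wild-type TPA library Fosl2 (0.33, edgeR adjusted p = 0.0797) and Jund (0.22, edgeR adjusted p = 0.379) no longer passed. Jund also lost its call without wild-type vehicle 2 (0.0912), knockout vehicle 1 (0.101) and either FA+TPA library (0.0546 each), with a minimum count of 50 (0.051) and with 1 mean per group (0.0595), and both genes lost it with library size only (Fosl2 0.19, Jund 0.13).

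**Figure D2:**
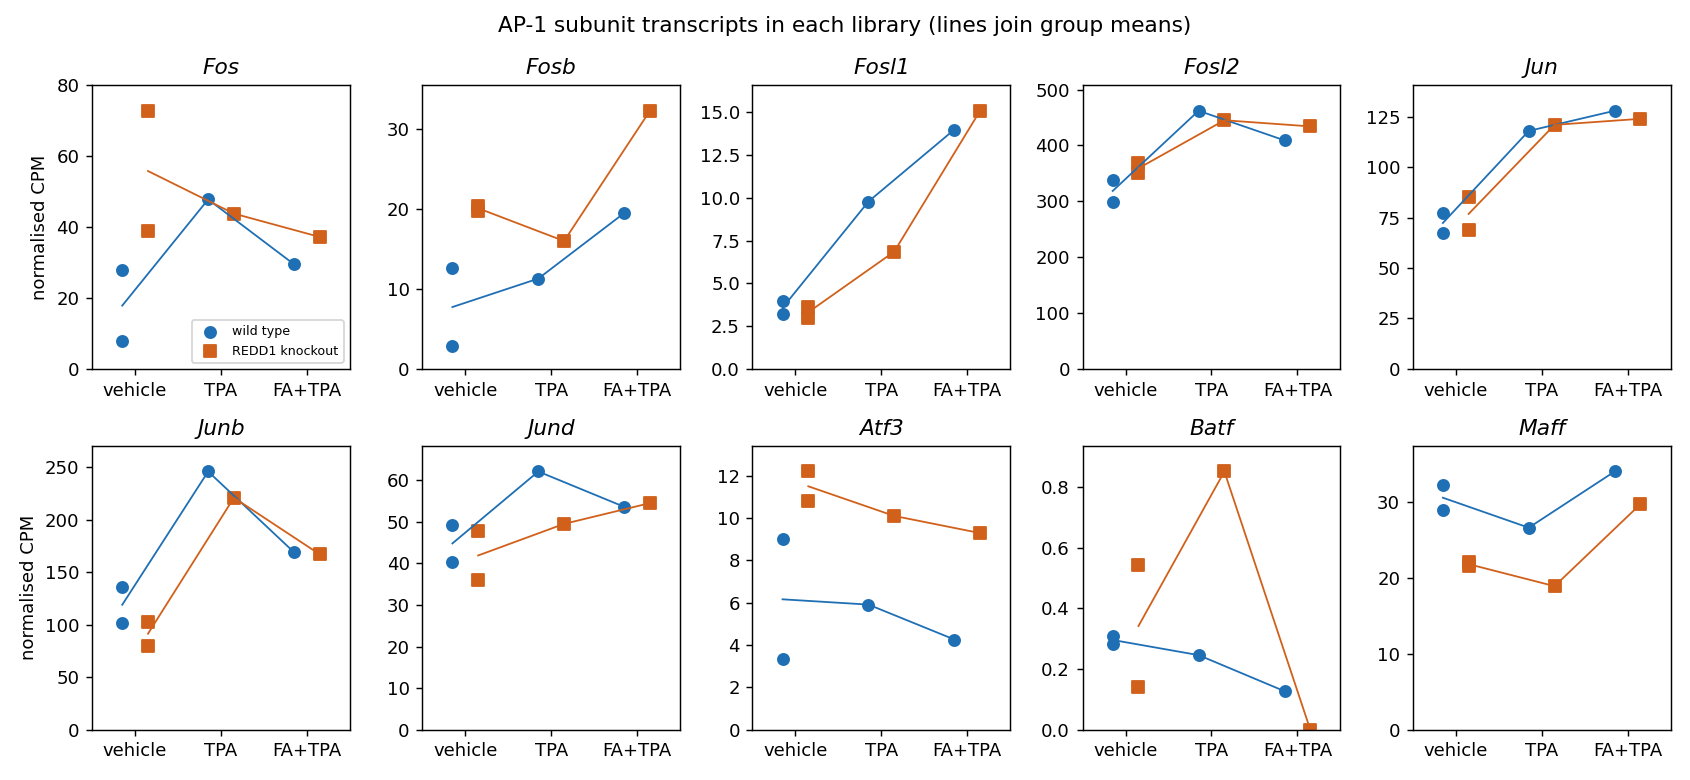
Normalised CPM of each AP-1 subunit on a linear axis from 0 by treatment, with 1 point per library, wild type as blue circles and REDD1 knockout as orange squares, and lines joining the group means. Fosl1, Fosl2, Jun and Junb lie higher in both TPA libraries than in any vehicle library, whereas the wild-type and knockout vehicle points of Fos, Fosb and Atf3 are spread widely.

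With TPA, Fos, Fosb and Atf3 did not pass. Fos (ENSMUSG00000021250; chromosome 12, 85473890 to 85477273, plus strand), the prototype Fos protein, was at 7.79 and 27.9 CPM in wild-type vehicle, 72.8 and 38.8 CPM in knockout vehicle, and 47.8 and 43.8 CPM in wild-type and knockout TPA. The TPA libraries lay within the range of the vehicle libraries, and the difference was 0.52 ± 0.47 (edgeR adjusted p = 0.392). Fosb (ENSMUSG00000003545; chromosome 7, 19302696 to 19310051, minus strand), whose protein pairs with Jun proteins like Fos, was at 2.88 and 12.6 CPM in wild-type vehicle, 19.8 and 20.4 CPM in knockout vehicle and 11.3 and 16.0 CPM under TPA (0.07 ± 0.39, edgeR adjusted p = 0.901). Atf3 (ENSMUSG00000026628; chromosome 1, 191170296 to 191218039, minus strand), a stress-induced factor that represses transcription as a homodimer, was at 3.33 and 8.99 CPM in wild-type vehicle, 12.2 and 10.8 CPM in knockout vehicle and 5.91 and 10.1 CPM under TPA (-0.13 ± 0.29, edgeR adjusted p = 0.743). Fosb and Atf3 also stayed inside their vehicle ranges under TPA. Without the low-count filter Fos passed (0.54, edgeR adjusted p = 0.0412).

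Batf (ENSMUSG00000034266; chromosome 12, 85686669 to 85709087, plus strand), a factor of lymphoid and dendritic cells that has no transactivation domain, was barely detected. Its raw counts were 5 and 6 in wild-type vehicle, 3 and 12 in knockout vehicle, 4 and 19 in wild-type and knockout TPA, and 2 and 0 in wild-type and knockout FA+TPA, so no direction can be read at this depth. The T cell markers, a possible source of Batf, summed to between 51.1 and 83.7 CPM over all libraries, and their part in the Batf counts was not tested. Maff (ENSMUSG00000042622; chromosome 15, 79346621 to 79359076, plus strand), a small Maf protein that has no activation domain and pairs with Nrf and Bach factors as well as Fos proteins, was at 32.2 and 28.9 CPM in wild-type vehicle, 22.1 and 21.5 CPM in knockout vehicle, 26.6 CPM in wild-type TPA and 18.9 CPM in knockout TPA. Each TPA library lay below both vehicle libraries of its own genotype, but the difference of -0.21 ± 0.11 did not pass (edgeR adjusted p = 0.145), except with library size only (-0.44, edgeR adjusted p = 0.00903).

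FA+TPA skin was then set against TPA skin, which shows what the glucocorticoid changed. Among the subunits, Fosl1, already raised by TPA, and Maff, which TPA had not raised, were higher with FA, and none fell. Thus 2 of 10 rose, against 5.71% of all tested genes that rose and 10% that changed in either direction, with a median difference of -0.07 over the subunits and 0.01 over all tested genes. Fosl1 had 14.0 CPM in wild-type FA+TPA and 15.1 CPM in knockout FA+TPA, above 9.79 and 6.86 CPM under TPA alone, a difference of 0.82 ± 0.20 (edgeR adjusted p = 0.0232). Maff was at 34.0 CPM in wild-type FA+TPA and 29.7 CPM in knockout FA+TPA, higher in each genotype than under TPA (26.6 and 18.9 CPM), a difference of 0.51 ± 0.12 (edgeR adjusted p = 0.0261).

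The Fosl1 call needed 3 of the 4 treated libraries and the Maff call all 4. The Fosl1 difference became 0.54 without knockout TPA (edgeR adjusted p = 0.283), 0.99 without wild-type FA+TPA (0.0903) and 0.61 without knockout FA+TPA (0.284), and passed without wild-type TPA. The Maff difference lay between 0.34 and 0.63 with any 1 of the 4 left out and passed in none of these (edgeR adjusted p from 0.0693 to 0.326).

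Junb was lower with FA in both genotypes, at 169 CPM (wild type) and 167 CPM (knockout) against 246 and 221 CPM under TPA. The difference of -0.47 ± 0.16 did not pass in edgeR (adjusted p = 0.101). It passed in DESeq2 (-0.49, adjusted p = 0.0373), without the low-count filter (-0.48, edgeR adjusted p = 0.00428) and without wild-type vehicle 1 (-0.47, edgeR adjusted p = 0.0256). Jun was at 128 and 124 CPM (0.08 ± 0.12, edgeR adjusted p = 0.764), Fosl2 at 409 and 434 CPM (-0.11 ± 0.11, edgeR adjusted p = 0.607) and Jund at 53.6 and 54.5 CPM (-0.04 ± 0.15, edgeR adjusted p = 0.921) in wild-type and knockout FA+TPA. Missing the threshold does not show that these 3 were equal with and without FA. Fosb was at 19.5 and 32.3 CPM in wild-type and knockout FA+TPA, higher than under TPA in each genotype, with a difference of 0.90 ± 0.44 that did not pass (edgeR adjusted p = 0.255). It passed without the low-count filter (0.89, edgeR adjusted p = 0.00383) and without wild-type vehicle 1 (0.90, edgeR adjusted p = 0.00131). Fos was at 29.5 and 37.2 CPM (-0.52 ± 0.54, edgeR adjusted p = 0.636) and Atf3 at 4.26 and 9.29 CPM (-0.28 ± 0.34, edgeR adjusted p = 0.693). Batf, at 2 and 0 counts with FA, had fitted values of -3.03 ± 1.08 against TPA (edgeR adjusted p = 0.113; 0.0304 without the low-count filter) and -2.24 ± 1.08 against vehicle (0.143), which depend on the prior count and set no bound.

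**Figure D3:**
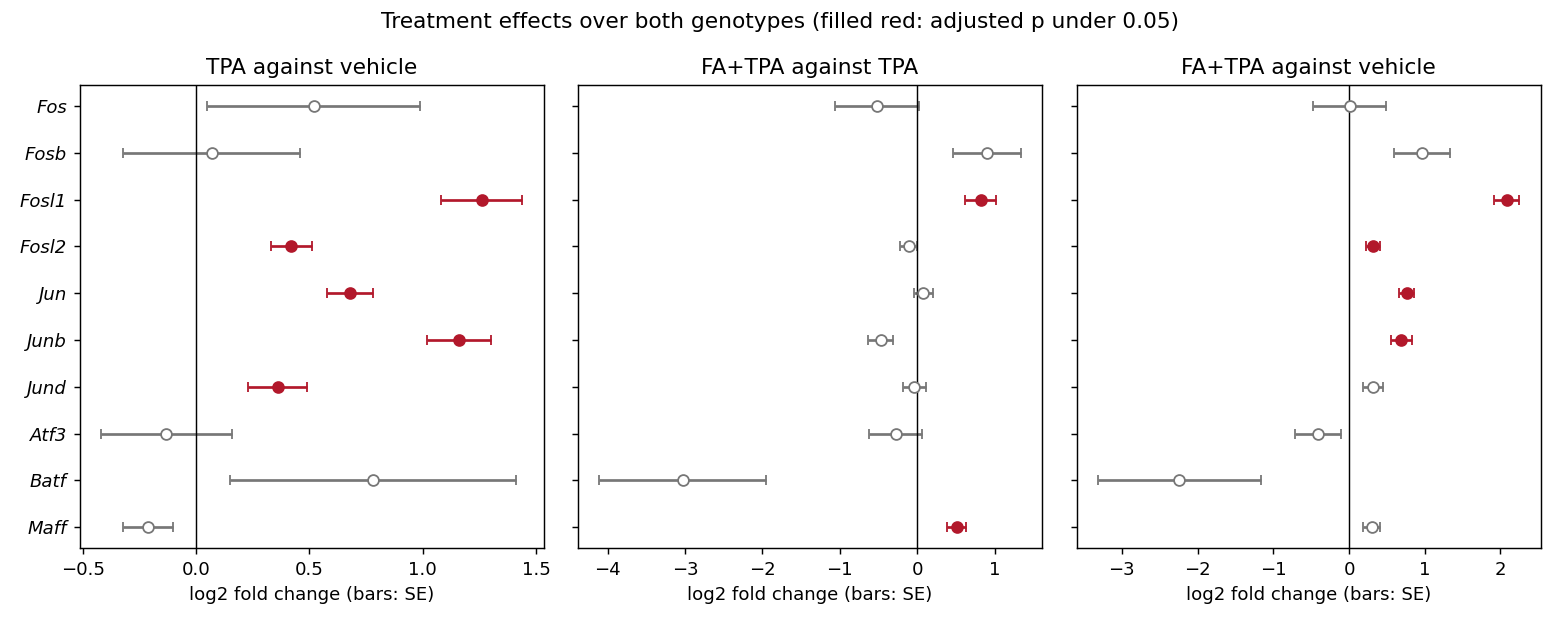
Log2 fold change of each subunit over both genotypes (points) with its standard error (bars) in 3 comparisons, where filled red points have an edgeR adjusted p under 0.05 and the x axes differ in range. Fosl1 is to the right of 0 in all 3 panels (1.26, 0.82 and 2.08), whereas Junb is right of 0 against vehicle and left of 0 in FA+TPA against TPA (-0.47, which did not pass).

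Against vehicle, FA+TPA skin showed higher Fosl1, Jun, Junb and Fosl2, that is 4 of 10 subunits up and 0 down where 17.4% of all tested genes rose and 31.6% changed. The median difference was 0.32 over the subunits and -0.01 over all tested genes, and the latter became -0.232 with library size only, with 1954 genes up and 4980 down in place of 3347 and 2729. This comparison shares its vehicle libraries with TPA against vehicle and its FA+TPA libraries with FA+TPA against TPA. Fosl1 differed by 2.08 ± 0.17 (edgeR adjusted p = 1.33e-05), Jun by 0.76 ± 0.10 (edgeR adjusted p = 0.000283), Junb by 0.69 ± 0.14 (edgeR adjusted p = 0.00346) and Fosl2 by 0.32 ± 0.09 (edgeR adjusted p = 0.0228). Each of these was higher in both FA+TPA libraries than in all 4 vehicle libraries. Jund (0.32 ± 0.13, edgeR adjusted p = 0.0824), Maff (0.30 ± 0.11, 0.0507) and Fosb (0.97 ± 0.37, 0.069) lay close to the threshold without passing. Without the knockout FA+TPA library Junb (0.54, edgeR adjusted p = 0.0919) and Fosl2 (0.32, edgeR adjusted p = 0.174) no longer passed, and Fosl2 also failed without wild-type FA+TPA (0.2), without knockout vehicle 2 (0.0516) and with library size only (0.10, 0.467). Without wild-type vehicle 1, 7 subunits passed, 6 up and 1 down, the additional ones being Fosb (0.65), Maff (0.34) and Atf3 (-0.60). Fosb also passed without wild-type vehicle 2 (1.22) and without the low-count filter (0.96, edgeR adjusted p = 3.33e-05), Jund without knockout vehicle 2 (0.41) and without that filter (0.31, 0.0442), and Maff with a minimum count of 50 (0.29, 0.0485). Fosl2 did not pass with 1 mean per group (0.32, edgeR adjusted p = 0.0582). Fos (0.01 ± 0.48, edgeR adjusted p = 0.992) and Atf3 (-0.41 ± 0.30, 0.335) did not pass on all libraries.

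Whether REDD1 loss altered the subunits was assessed over all treatments and in vehicle skin alone. Over all treatments 1 of 10 passed, Maff, which was lower in knockout by 0.41 ± 0.09 on the log2 scale (-0.41, edgeR adjusted p = 0.0291), where 1.60% of all tested genes were lower and 3.58% differed. With library size only, the split of all calls went from 382 higher and 308 lower to 639 and 233. Within each treatment both genotypes were apart for Maff, with 32.2 and 28.9 against 22.1 and 21.5 CPM in vehicle, 26.6 against 18.9 CPM under TPA and 34.0 against 29.7 CPM under FA+TPA. The call was lost without wild-type vehicle 1 (edgeR adjusted p = 0.0616), without knockout vehicle 1 (0.088) or 2 (0.0985), without wild-type TPA (0.0922) or knockout TPA (0.0939), and with library size only (0.0615), while the value stayed between -0.49 and -0.35.

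Atf3 pointed the other way and was higher in knockout than in wild type under each treatment, with 12.2 and 10.8 against 3.33 and 8.99 CPM in vehicle, 10.1 against 5.91 CPM under TPA and 9.29 against 4.26 CPM under FA+TPA. Its difference of 0.91 ± 0.24 did not pass in edgeR (adjusted p = 0.0664), but did in DESeq2 (0.91, adjusted p = 0.00525) and limma-voom (0.99, adjusted p = 0.0453), with library size only (0.98, edgeR adjusted p = 0.0258), without the low-count filter (0.92, edgeR adjusted p = 1.9e-05) and without wild-type vehicle 2 (1.24, edgeR adjusted p = 0.0143). Fosb was likewise higher in knockout under each treatment (0.98 ± 0.32, edgeR adjusted p = 0.139), and passed without the low-count filter (0.99, edgeR adjusted p = 3.79e-06) and without wild-type vehicle 1 (0.64, edgeR adjusted p = 0.00863). The Fos difference was 0.86 ± 0.39 (edgeR adjusted p = 0.326; 0.000248 without the low-count filter), and its knockout library was the lower one under TPA.

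In vehicle skin 0 of 10 subunits passed in edgeR, DESeq2 or limma-voom, where 2.17% of all tested genes passed in edgeR (1.44% higher and 0.727% lower), and 5 of 10 had an unadjusted edgeR p under 0.05. The largest difference was that of Fos, whose mean was 17.9 ± 14.3 CPM for wild-type and 55.8 ± 24.0 CPM for knockout libraries (SD, n = 2 each), 1.63 ± 0.45 (edgeR adjusted p = 0.117). Fosb stood at 7.74 ± 6.88 and 20.1 ± 0.453 CPM (1.37 ± 0.44, edgeR adjusted p = 0.195) and Atf3 at 6.16 ± 4.00 and 11.5 ± 0.978 CPM (0.89 ± 0.35, edgeR adjusted p = 0.323). For all 3 genes both knockout vehicle libraries lay above both wild-type ones, and wild-type vehicle 1 was the lowest of the 8 libraries. The Fos difference was 0.99 without wild-type vehicle 1 (edgeR adjusted p = 1.22e-06), 2.84 without wild-type vehicle 2, 1.11 without knockout vehicle 1 and 2.02 without knockout vehicle 2, with an adjusted p under the threshold each time. Each of these fits has 1 genotype with a single vehicle library, which is assumed to vary like the pair left in the other genotype, the sole source of the spread, so the small p-values are no firmer than the full fit that did not pass. Without the low-count filter, on all 8 libraries, Fos passed (1.66, edgeR adjusted p = 0.0337). The Fosb difference was under the threshold with any 1 vehicle library left out (0.67, 2.81, 1.39 and 1.34 in the same order), with the same limit. Atf3 passed without wild-type vehicle 2 (1.79, edgeR adjusted p = 9.57e-06) or knockout vehicle 2 (0.97, 0.0343), and Junb (-0.57, 0.00261) and Maff (-0.56, 0.0136) without wild-type vehicle 2, again with the spread from 1 pair. Skeletal muscle markers, none of them at 0 in all libraries, summed to 21.2 and 5.89 CPM in wild-type vehicle and 168 and 53.1 CPM in knockout vehicle, and their part in the Fos and Fosb values was not tested.

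The interaction of genotype with TPA, which asks whether the TPA response differed between genotypes, passed for 0 of 10 subunits in edgeR, DESeq2 and limma-voom, where 0.00519% of all genes passed in edgeR. Fos alone had an unadjusted edgeR p under 0.05 (-1.76 ± 0.76, edgeR adjusted p = 0.932), with a TPA to vehicle log2 ratio of 1.42 in wild type and -0.35 in knockout. That interaction passed without wild-type vehicle 1 (-1.12, edgeR adjusted p = 0.00108), wild-type vehicle 2 (-2.99, 2.3e-07) or knockout vehicle 2 (-2.14, 7.35e-07), and the Fosb interaction passed without wild-type vehicle 2 (-2.32, 6.38e-06). In these fits 3 of the 4 groups compared are single libraries and 1 vehicle pair gives all the spread, so they do not outweigh the full fit. The Jun ratio was 0.71 in wild type and 0.66 in knockout and the Junb ratio 1.05 and 1.28, with interactions of -0.06 ± 0.24 and 0.23 ± 0.29. The interaction of genotype with FA before TPA passed for 0 of 10 in all 3 tools and 0 of 10 at an unadjusted edgeR p under 0.05, where 0 of all genes passed in edgeR. The Fosl1 ratio of FA+TPA to TPA was 0.51 in wild type and 1.14 in knockout (interaction 0.62 ± 0.40, edgeR adjusted p = 1).

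Across the 8 libraries the subunits fell into patterns, given here as a description of points that share treatments and 4 vehicle libraries. Jun correlated with Fosl1 (Pearson r = 0.94), Fosl2 (0.88), Junb (0.86) and Jund (0.83), and Fos with Fosb (0.80) and Atf3 (0.77), whereas Fos and Junb had an r of -0.03. Atf3 and Maff had an r of -0.75. By the same measure the genes most like Fosl1 over 8 libraries were Ist1 (0.993), Atp1b1 (0.989), Slc8b1 (0.986), Plk3 (0.986) and Ell (0.985). A high r is a likeness of pattern and not of size. Ist1 lay between 126 and 147 CPM over all libraries and Slc8b1 between 30.7 and 43.3 CPM. Atp1b1, a subunit of the sodium pump, had 41.4 to 47.8 CPM in the vehicle libraries, 121 and 94.1 CPM under TPA and 199 and 179 CPM under FA+TPA. Plk3, a stress-responsive polo-like kinase, went from between 71.8 and 87.0 CPM to 155 and 135 CPM and then 266 and 219 CPM. Those most like Fos were Acat1 (0.959), Rpa1 (0.932), Gadd45g (0.926), Ccnc (0.919) and Thap12 (0.917). Among them Rpa1 lay between 47.2 and 52.1 CPM over all libraries and Gadd45g between 1.92 and 6.56 CPM.

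Genes that act before, beside and after AP-1 were counted from lists that were made with earlier results of these data known. Of 37 tested signalling genes and ternary complex factors, TPA raised 11 and lowered 8, with a median of -0.01, near the background of 23.2% of all tested genes up and 22.7% down. The MEK1 kinase gene Map2k1 rose by 1.40 ± 0.08 (edgeR adjusted p = 5.29e-07), from 29.4 to 34.4 CPM over the vehicle libraries up to 85.8 and 80.2 CPM, and the Ets factor gene Elk3 by 1.92 ± 0.14. Both were lower with FA (Map2k1 -0.87 ± 0.10, Elk3 -1.01 ± 0.17, edgeR adjusted p = 0.000413 and 0.00398). Transcripts of TPA receptors went both ways: Prkcb (-1.50 ± 0.12), Prkcd (-0.64 ± 0.08), Prkce (-0.41 ± 0.12) and the diacylglycerol-binding Ras activator Rasgrp1 (-1.12 ± 0.08) fell and Prkcq (1.70 ± 0.16) rose, with edgeR adjusted p of at most 0.0152. Of 17 tested early response genes, 11 rose with TPA and 1 fell, against the same 23.2% and 22.7% of all genes. Ier3 (2.02 ± 0.16), Klf10 (1.23 ± 0.10) and Egr2 (1.12 ± 0.11) were among them, and Klf6 changed by -0.62 ± 0.11 (edgeR adjusted p = 0.00119). With FA, Arc rose further by 2.04 ± 0.16 (edgeR adjusted p = 5.43e-05), from 15.3 and 15.7 CPM to 72.4 and 57.3 CPM, while Egr2 (-0.58 ± 0.13), Nr4a3 (-1.07 ± 0.28) and Ier3 (-0.72 ± 0.19) fell. Of 29 tested other basic leucine zipper genes, 13 rose with TPA and 4 fell, where 46.0% of all tested genes changed in either direction. They included Atf4 (0.96 ± 0.10), Atf5 (1.12 ± 0.13) and Bach2 (-1.20 ± 0.16).

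Textbook AP-1 target genes, a list made of genes known for TPA response elements or AP-1 dependence, were counted in the same way. Of 29 tested, 23 rose with TPA and 1 fell, with a median of 1.44, where 23.2% of all tested genes rose and 22.7% fell. In FA+TPA against TPA 14 fell and 3 rose, with a median of -0.83, where 4.31% of all tested genes fell and 5.71% rose. Against vehicle, FA+TPA skin still had 19 of the 29 higher and 1 lower, with a median of 1.22, where 17.4% of all tested genes were higher and 14.2% lower. The list was drawn up with earlier results of these data known, so its direction is no independent evidence. Of 26 targets with a promoter window, 12 held TGANTCA in any of their windows, or 46.2% of these genes, against 7.81% of all windows. Genes and windows are not counted alike, and the excess follows in part from how the list was made. A pair of them that fell with FA and a pair that rose are shown, with the 120 bases before the start and the site in capitals.
Mmp13, chr9:7272394-7272513, plus strand: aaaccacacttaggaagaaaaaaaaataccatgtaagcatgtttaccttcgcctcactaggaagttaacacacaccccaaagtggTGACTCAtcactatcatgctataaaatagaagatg
Mmp3, chr9:7445702-7445821, plus strand: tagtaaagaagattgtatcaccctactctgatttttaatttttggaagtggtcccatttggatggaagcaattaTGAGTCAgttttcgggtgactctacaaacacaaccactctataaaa
Ivl, chr3:92573736-92573855, minus strand: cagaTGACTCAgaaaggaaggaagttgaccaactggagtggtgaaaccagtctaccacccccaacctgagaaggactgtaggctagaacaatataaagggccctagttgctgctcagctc
Lor, chr3:92083143-92083262, minus strand: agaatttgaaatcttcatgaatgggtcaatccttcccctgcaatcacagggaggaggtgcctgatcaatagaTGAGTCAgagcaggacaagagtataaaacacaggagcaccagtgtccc
The collagenase gene Mmp13, with its site at -35, was at 28.7 and 29.5 CPM under TPA and 0.254 and 1.45 CPM under FA+TPA, and the stromelysin gene Mmp3, with its site at -46, at 49.3 and 127 CPM and then 2.92 and 4.10 CPM. Mmp3 under FA+TPA remained above its vehicle range of 0.79 to 1.19 CPM (1.82 ± 0.31, edgeR adjusted p = 0.00144). Mmp13 also stayed above its vehicle range of 0.0468 to 0.227 CPM (3.03 ± 0.68, edgeR adjusted p = 0.00638). The lower end of that Mmp13 range is under the limit given above for a count of 0. Involucrin (Ivl, site at -116), a cornified envelope precursor, went from 180 and 204 CPM under TPA to 383 and 384 CPM under FA+TPA (1.00 ± 0.19, edgeR adjusted p = 0.00707). Loricrin (Lor, site at -48), the main cornified envelope protein, fell with TPA to 717 and 437 CPM and stood at 1790 and 1410 CPM under FA+TPA (1.51 ± 0.15, edgeR adjusted p = 0.000234). Of the 9 tested targets with the site, 8 rose and 1 fell with TPA, and 3 fell and 2 rose with FA. Of the 13 tested without it, 11 rose and 0 fell with TPA, and 7 fell and 0 rose with FA. The difference between these groups was not tested.

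**Figure D4:**
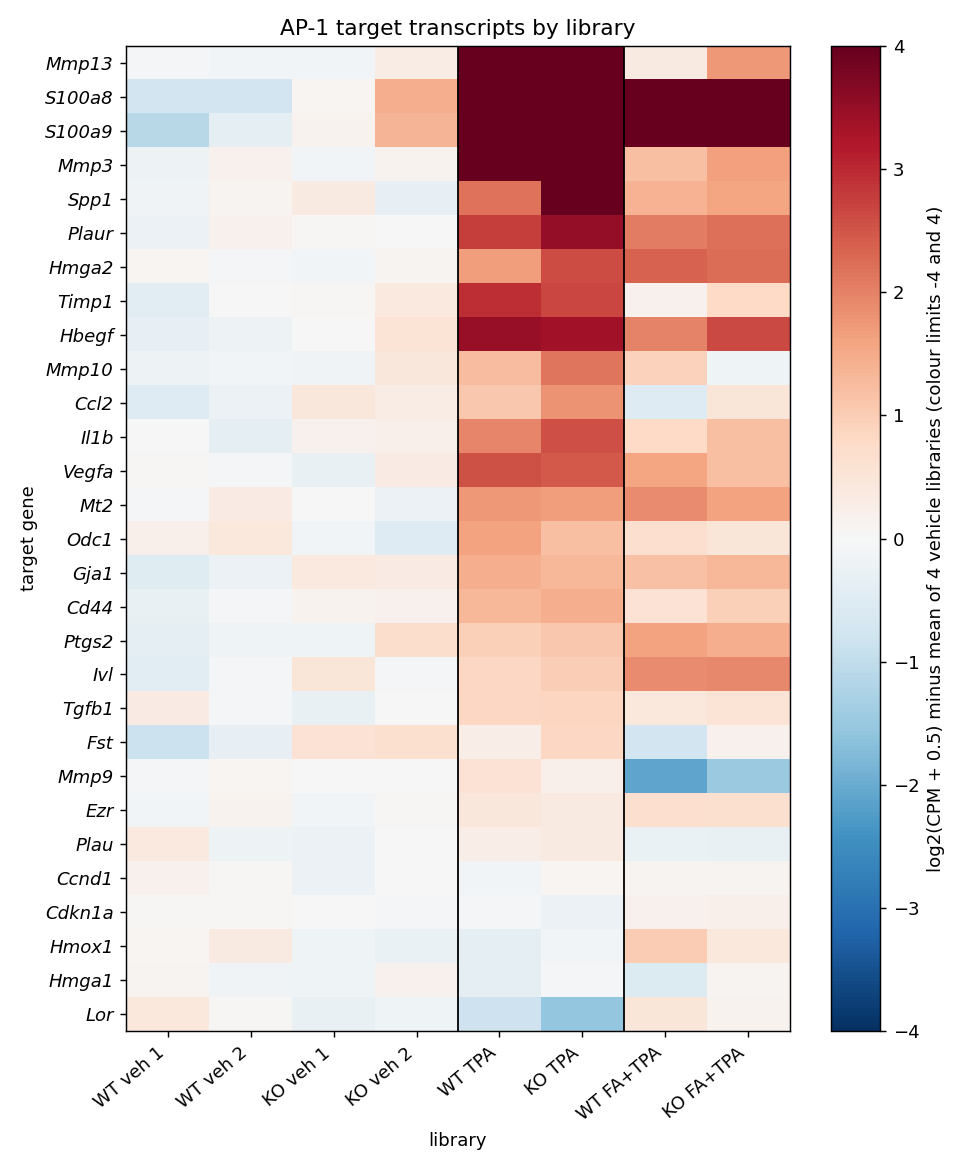
Heat map of the 29 tested AP-1 target transcripts (rows, ordered by their TPA change) in each library (columns), coloured by log2(CPM + 0.5) minus the mean of the 4 vehicle libraries, with colours saturating at -4 and 4. Mmp13 and Mmp3 are far higher under TPA than under FA+TPA, and Ivl is highest under FA+TPA. Mmp3 is still above vehicle under FA+TPA, and so is Mmp13. For Mmp13 the wild-type FA+TPA library (0.254 CPM) is only just above its highest vehicle library, knockout vehicle 2 (0.227 CPM). The knockout FA+TPA library (1.45 CPM) is further above it.

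Annotated exons on the opposite strand overlap those of Fosl1 (Ccdc85b), Jun (Junos), Junb (Prdx2) and Jund (Gm11175), and without a stated strand setting their reads cannot be told apart. Gm11175 had 0 counts in every library, and Ccdc85b between 87 and 192 counts, highest in vehicle where Fosl1 was lowest. Junos had 38 and 37 counts in wild-type vehicle and 58 and 72 in knockout vehicle. It had 50 and 101 in wild-type and knockout TPA and 74 and 75 in wild-type and knockout FA+TPA, the same direction as Jun within each genotype. These are raw counts, and the part of the overlaps in the AP-1 values was not tested. Prdx2, which encodes a peroxiredoxin, had between 1977 and 2797 counts in vehicle and 1475 and 1647 under TPA, the opposite direction to Junb.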

How the data were processed

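Total RNA was sequenced in 8 libraries. Per the submitters' processing notes, reads were processed with Trim Galore, STAR, HTSeq and mm10; the sources used here do not give versions, annotation release or strand setting. The authors deposited raw read counts per Ensembl gene, 1 library per file. Symbols, positions and exon lengths came from GENCODE M21 (54165 identifiers matched, 67 did not). CPM was computed from the counts and TMM factors; RPKM divides it by merged exon length.

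Tests were edgeR 4.0.16 quasi-likelihood F tests in R 4.3.3, with filterByExpr by treatment (minimum count 10) and Benjamini-Hochberg adjustment over all 19251 genes, threshold 0.05. Treatments and overall genotype were fitted additively on 8 libraries. Vehicle genotype and interactions used 1 mean per group, which assumes the single treated libraries vary like the vehicle pairs. Each SE was derived from the log2 change and its F statistic. The fits were tested on simulated counts. The vehicle replicates differed by more than sampling noise (chi-square per degree of freedom 31.08 and 13.81). Alternatives were RLE, library size only, no filter, minimum count 50, DESeq2 1.42.0, limma-voom (limma 3.58.1), 1 mean per group, removal of the noncoding transcript Gm26917, each library left out, and vehicle libraries alone.

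All subunits were reported. From each pathway list up to 3 risen and 3 fallen genes with the smallest p could be named per treatment comparison, along with the 5 genes most like Fosl1 and Fos by Pearson r of log2 CPM, (mean log2 CPM 2 or more). Prkcd and Prkce against vehicle were added after their values were seen. Members and lists were chosen with earlier results of these data known.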

Additional observations from a re-analysis of the deposited data

Results flagged for a closer look

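For Fos, the log2 ratios of FA+TPA to the vehicle mean had opposite signs, 0.73 in wild type and -0.58 in knockout. Wild-type FA+TPA (29.5 CPM) lay just above its vehicle libraries (7.79 and 27.9 CPM). Knockout FA+TPA (37.2 CPM) lay just below its own (72.8 and 38.8 CPM). Each was thus close to 1 vehicle library of its genotype, and the difference between genotypes was not tested. The Batf ratios of TPA to vehicle had opposite signs, -0.27 in wild type and 1.32 in knockout, but rest on 4 counts against 5 and 6 and on 19 against 3 and 12, so no direction can be read from them, and the interaction did not pass (1.55 ± 1.21, edgeR adjusted p = 1). Jund went from TPA to FA+TPA by -0.21 in wild type and 0.14 in knockout, and its interaction did not pass (0.35 ± 0.32, edgeR adjusted p = 1).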

How the results depend on the processing

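The number of subunits passing was 5 for TPA against vehicle, 2 for FA+TPA against TPA, 4 for FA+TPA against vehicle, 1 for knockout over all treatments and 0 for knockout in vehicle and both interactions. Without the low-count filter it was 5 for FA+TPA against TPA, 4 for knockout over all treatments and 1 for knockout in vehicle. That setting fitted 34515 genes on the same libraries, so calls gained there are no independent evidence. Knockout over all treatments gave 2 in DESeq2, 2 in limma-voom and 0 with 1 mean per group. With 1 library left out the numbers ranged from 3 to 5, 0 to 4, 2 to 7, 0 to 2 and 0 to 5 in the order above, 0 to 2 for the TPA interaction and 0 throughout for the FA interaction. An interaction could not be fitted without a treated library it compares. With vehicle libraries alone 0 passed, and with a replicate block 3 passed (Fos, Fosb, Atf3). The vehicle replicate numbers did not deviate together (correlation -0.06), so they are shared numbers only. The summed level of the 10 subunits in vehicle was 651.3 normalised CPM and 704 CPM by library total. Jun, Junb and Fosl1 passed TPA against vehicle under every alternative, and no subunit's call changed direction. Removal of Gm26917 and RLE scaling changed no call of a subunit. A minimum count of 50 left too few Batf counts for a test.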

Other observations

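Over all treatments, REDD1 loss changed 1 of 29 other basic leucine zipper genes, 0 of 17 early response genes, 1 of 37 signalling genes and 2 of 29 targets, where 3.58% of all tested genes changed. These were the follistatin gene Fst, an activin antagonist, which was higher in knockout (1.00 ± 0.15, edgeR adjusted p = 0.00614), and Lor (-0.51 ± 0.10, 0.0228), the p38 kinase activator gene Map2k6 (-0.60 ± 0.12, 0.022) and Maf (-0.45 ± 0.11, 0.0468), which were lower. In vehicle skin, where 2.17% of all tested genes differed, those that passed were Fst (1.24 ± 0.20, edgeR adjusted p = 0.0123), the connexin 43 gene Gja1 (0.71 ± 0.13, 0.0254) and Maf (-0.59 ± 0.13, 0.0481). They were picked after their values were seen as all the members of those lists that passed.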
